A study of Caenorhabditis elegans with 12 samples.

Results

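Binding sites of TOP-2, a type II topoisomerase, were mapped by ChIP-seq in L3 larvae, the third larval stage, of the wild-type strain N2. In ChIP-seq, DNA bound by a protein is cross-linked, recovered with an antibody and sequenced. All 464 peaks of the TOP-2 list were taken, out of 7558 peaks in the lists of 6 proteins, each immunoprecipitated in 2 replicates (12 samples in all). The TOP-2 list joins both replicates. Of the other 5 lists, that of the transcription factor BLMP-1 held 982 peaks, that of the histone demethylase JMJD-2 held 816 and that of the cohesin subunit SCC-1 held 1115. SIN-3, on which histone deacetylase complexes assemble, had 1715 peaks and ZFP-1, a PHD finger and zinc finger protein, had 2466. All samples shared the strain and the stage, were whole animals grown at 20 degrees, and were fixed with EGS, a protein cross-linker, followed by formaldehyde. Whole larvae hold many tissues, so a site present in few cells and a site weakly bound in many cells cannot be told apart. The lists hold positions in the ce10 assembly and no height, read count or P-value. The depth behind a peak is therefore unknown, and because the replicates were already combined, no error between replicates can be given. Intervals below are 95% intervals (exact Clopper-Pearson for shares, exact Poisson for densities) and cover counting error over peaks only. Tests take peaks as units, so they compare lists and not replicates, and peaks close to each other may not be independent.

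Type II topoisomerases cut both strands of a DNA duplex, pass another duplex through the break and seal it again. They remove supercoils that build up during transcription and replication, and they unlink sister chromosomes before division. In mammalian cells, the type II topoisomerase TOP2B is often found beside cohesin and CTCF at the anchors of chromatin loops. C. elegans has no CTCF ortholog, and in hermaphrodites the X Chromosome is bound along its length by a condensin complex for dosage compensation. The autosomes have gene-dense centers and arms that carry more repeated sequence and recombine more often.

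TOP-2 peaks were densest on X and on III and sparsest on V. There were 117 peaks on X, or 6.62 per Mb (interval 5.47 to 7.93), and 88 on III, or 6.38 per Mb (5.12 to 7.87). Chromosome I had 67 peaks (4.45 per Mb, 3.44 to 5.65), IV had 74 (4.24 per Mb, 3.33 to 5.32) and II had 58 (3.80 per Mb, 2.88 to 4.91). Chromosome V, the longest at 20.9 Mb, held just 60 peaks (2.87 per Mb, 2.19 to 3.69). The intervals of X and III largely overlapped, and that of V overlapped neither. Each chromosome was taken to reach as far as the outermost peak found on it in the 6 lists.

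**Figure D1:**
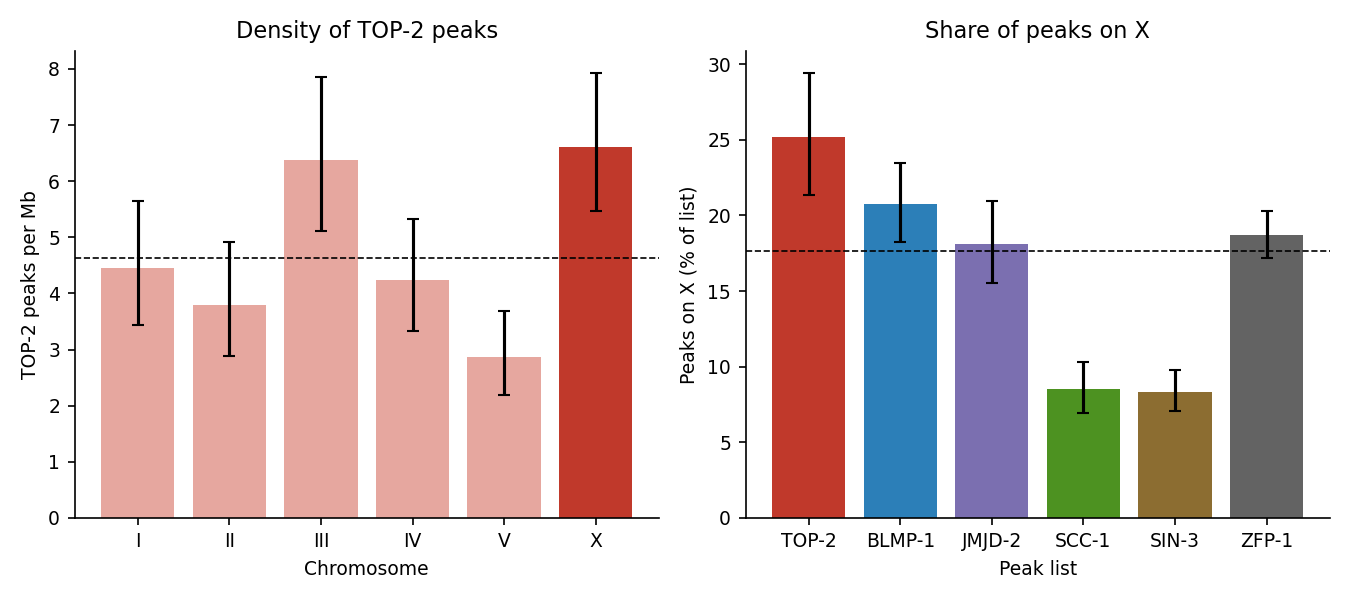
Left, TOP-2 peaks per Mb on each chromosome, with exact Poisson 95% intervals and the genome mean of 4.63 per Mb as a dashed line. Right, the share of each list's peaks that lie on X, with exact Clopper-Pearson 95% intervals and the share of X in the length (17.7%) as a dashed line. X and III stand above the mean in the left plot, V below it, and TOP-2 has the highest bar in the right plot.

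Set against the autosomes together (4.21 per Mb), the density of TOP-2 peaks on X was 1.57-fold. The same ratio was 1.22 for BLMP-1, 1.07 for ZFP-1 and 1.03 for JMJD-2, and it was far below 1 for both SCC-1 (0.434) and SIN-3 (0.424). As a share of its list, TOP-2 had 25.2% of peaks on X, which was higher than JMJD-2 with 18.1% (adjusted p = 0.00403 in a two-sided Fisher's exact test, with Benjamini-Hochberg adjustment over the 5 lists) and ZFP-1 with 18.7% (adjusted p = 0.00299 in the same Fisher's exact test). The share also exceeded the 8.52% of SCC-1 and the 8.34% of SIN-3 (adjusted p = 9.32e-17 and 1.63e-19, Fisher's exact test). Against BLMP-1, with 20.8% of its peaks on X, the test was not passed (adjusted p = 0.0671, Fisher's exact test), although it was once peaks of the same list less than 1 kb apart were merged into 1 site (difference 5.03 percentage points, adjusted p = 0.0468). The difference from BLMP-1 was 3.42 percentage points without the 1-Mb window of X richest in TOP-2 peaks (adjusted p = 0.154, Fisher's exact test). It was 1.45 percentage points without peaks that overlap another list (adjusted p = 0.600, Fisher's exact test). With peaks shared with another list left out, the difference from JMJD-2 fell to 2.88 percentage points and no longer passed (adjusted p = 0.467, Fisher's exact test). III, close to X in TOP-2 density, was the densest chromosome for SIN-3 (28.1 per Mb), ZFP-1 (31.1) and JMJD-2 (10.4), whereas X was densest for BLMP-1 (11.5) and I for SCC-1 (15.1).

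Each chromosome was divided into 3 segments of equal length, the left and right of which are called outer here. Along the autosomes TOP-2 peaks lay more often in the outer segments than the peaks of BLMP-1 and ZFP-1 did. Of 347 autosomal TOP-2 peaks, 245 (70.6%, interval 65.5% to 75.3%) were in the outer segments of their chromosome, which make up 66.7% of the length. The share was 59.3% for BLMP-1 and 60.6% for ZFP-1 (adjusted p = 0.00099 for both, Fisher's exact test). JMJD-2 with 63.6%, SCC-1 with 65.8% and SIN-3 with 65.7% did not differ from TOP-2 at the threshold (adjusted p = 0.0504, 0.113 and 0.112, Fisher's exact test). With 4 segments of equal length instead, again with the outermost on each side counted, TOP-2 was higher than these 3 lists as well (largest adjusted p = 0.00907, Fisher's exact test). Left and right were not used equally. The left segment held 31 of the TOP-2 peaks on I, against 16 in the middle and 20 in the right segment, and on III it held 40, against 24 in each of the others. On II the counts from left to right were 24, 17 and 17, and on IV they were close to even with 24, 23 and 27. On V the left segment held 12 peaks, the middle 22 and the right 26, so V was the autosome with the fewest peaks in its left segment.

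On X, 92 of 117 TOP-2 peaks (78.6%, interval 70.1% to 85.7%) were in the outer segments, 54 of them in the left and 38 in the right, and 25 were in the middle. The shares of the other lists on X ran between 70.1% for BLMP-1 and 78.9% for SCC-1, and none of the 5 differences passed (adjusted p between 0.29 and 1, Fisher's exact test). The middle segment of X was thus the least used of its 3 for all 6 lists.

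**Figure D2:**
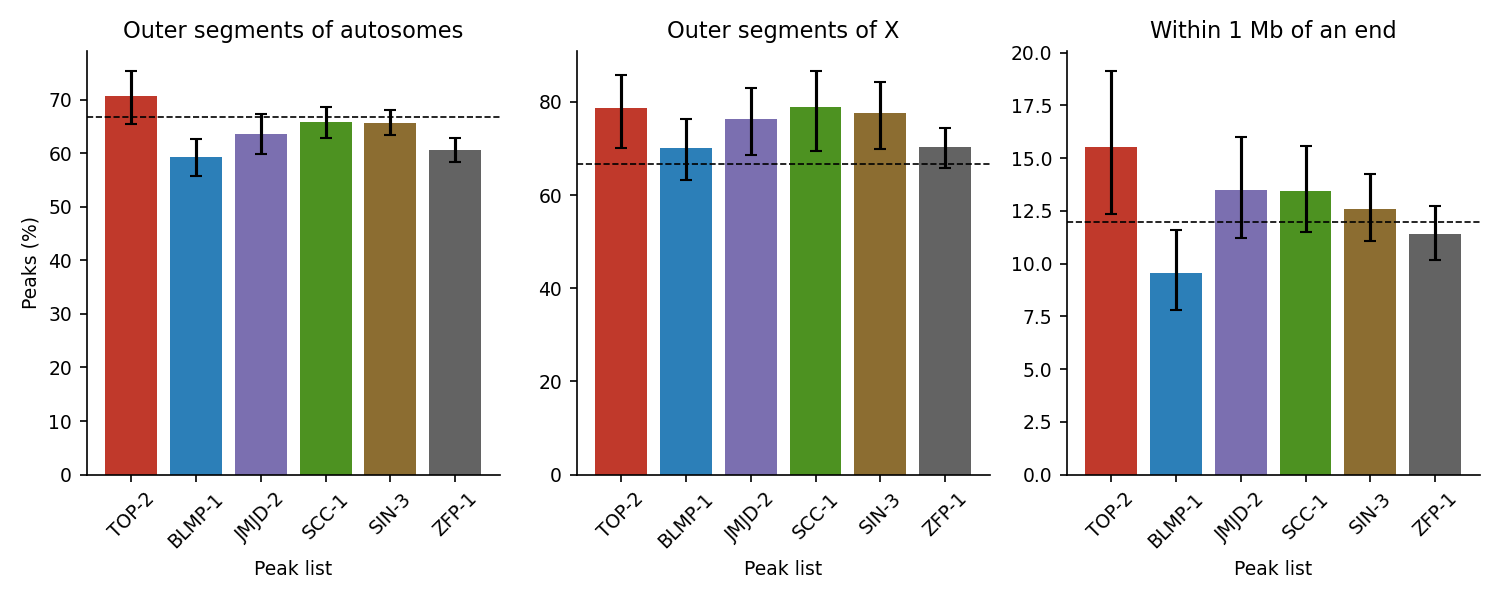
Percent of each list's peaks in the outer segments of the autosomes (left), in the outer segments of X (middle) and within 1 Mb of a chromosome end on all chromosomes (right), with exact Clopper-Pearson 95% intervals. The dashed line is the share of the length that the region makes up. TOP-2 is the highest bar in the left and right plots, and on X its interval overlaps that of each other list.

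Near the chromosome ends, 72 TOP-2 peaks (15.5%, interval 12.3% to 19.1%) had their midpoint within 1 Mb of an end, where 12.0% of the length lies. This was more than for BLMP-1 (9.57%, adjusted p = 0.00699, Fisher's exact test) and ZFP-1 (11.4%, adjusted p = 0.0394, Fisher's exact test). The shares of 13.5% for JMJD-2, 13.5% for SCC-1 and 12.6% for SIN-3 were not distinguished from that of TOP-2 (smallest adjusted p = 0.175, Fisher's exact test). Within 500 kb of an end no difference passed, and the differences from BLMP-1 and ZFP-1 were 2.55 and 1.99 percentage points (adjusted p = 0.264 for both, Fisher's exact test). The outermost TOP-2 peaks reached very different distances from the ends. At II:15276373-15276592 a TOP-2 peak was the last peak of any list on that chromosome. The first peak on III, at 33803 to 34042, and the first on IV, at 62418 to 62678, lay 33.9 kb and 62.5 kb from the start. The first peak on II began at 122467, the first on X at 180570 and the first on I at 431878. By contrast, V had no TOP-2 peak before 1558036 to 1558250, although other lists had peaks on V from 8132 onward. At the right ends, the last TOP-2 peak was 99.2 kb from the end on V, 275 kb on III, 372 kb on I, 410 kb on IV and 678 kb on X.

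The 1-Mb windows with the most TOP-2 peaks, found in steps of 100 kb, were mostly toward one end of the chromosome. On X the window with 16 peaks, from 2100001 to 3100000, also held 20 BLMP-1 and 30 ZFP-1 peaks. On III the first 1 Mb was the densest, with 15 TOP-2 peaks, 27 ZFP-1 and 15 SIN-3 peaks. On II, 11 TOP-2 peaks lay between 1500001 and 2500000, where the other lists were thin, with 1 BLMP-1, 2 JMJD-2, 8 SCC-1, 8 SIN-3 and 9 ZFP-1 peaks. On V the window from 19000001 to 20000000 also had 11, beside 3 BLMP-1, 3 JMJD-2, 6 SCC-1, 15 SIN-3 and 9 ZFP-1 peaks. The TOP-2 peaks thus outnumbered those of every other list in the window on II and all but SIN-3 in that on V, even though TOP-2 is the shortest list. The window on IV (11 peaks, from 8000001 to 9000000) was near the middle of the chromosome, and that on I (10 peaks) ran from 1200001 to 2200000. Each window was picked as the highest of its chromosome and lies above the mean by construction.

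TOP-2 peaks were far apart as a rule, and a large minority came in very tight groups. The median distance between the midpoints of neighboring TOP-2 peaks was 110 kb over 458 gaps. It was 66.2 kb on X, 55.1 kb on III, 96.4 kb on IV, 147 kb on II, 164 kb on I and 219 kb on V. At the long end, 8 gaps were wider than 1 Mb, 3 of them on V. The longest, 2362 kb on V from the peak at 15361324 to that at 17723749, was crossed by 10 BLMP-1, 10 JMJD-2, 9 SCC-1, 16 SIN-3 and 31 ZFP-1 peaks. The next longest, 2197 kb, was on the left of V between 2328478 and 4526099. On X no TOP-2 peak lay in the 1729 kb between 6417759 and 8147393, where 34 ZFP-1 and 13 JMJD-2 peaks were found. Gaps of 1434 kb and 1327 kb on IV, after the peaks at 9118531 and 5926687, completed the 5 longest.

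At the short end, 53 of the 458 gaps (11.6%) were under 1 kb, against 3.09% to 5.98% of gaps in the other 5 lists, all of which hold more peaks on the same length. Counted by peaks, 94 TOP-2 peaks (20.3%, interval 16.7% to 24.2%) had another TOP-2 peak less than 1 kb away, where the share over all 6 lists together was 9.94%. It was 11.0% for ZFP-1 (interval 9.78% to 12.3%) and 9.91% for SIN-3, SCC-1 had 9.69%, BLMP-1 6.31% and JMJD-2 5.64%. The interval for TOP-2 did not overlap that of any other list. Peaks with such a neighbor come in groups by definition, so these intervals are too narrow and their separation is no test. No test was made of spacing. Tight grouping was most frequent on IV (23 of 74 peaks, 31.1%) and III (22 of 88), and least frequent on V (5 of 60, 8.33%). On V the TOP-2 share was within the range of the other lists, from 3.77% for JMJD-2 to 13.2% for SCC-1. X, the densest chromosome, had 20 of 117 peaks in tight groups (17.1%, interval 10.8% to 25.2%), which overlapped the intervals of III and IV. With gaps of up to 10 kb, 36.0% of TOP-2 peaks were in runs (interval 31.6% to 40.5%), compared with 26.8% for JMJD-2 (23.8% to 30.0%), 35.0% for SCC-1, 37.3% for BLMP-1, 40.5% for SIN-3 and 54.3% for ZFP-1. At this limit the TOP-2 share was thus within the range of the other lists, which are denser. Relative to the mean gap of its list on the same chromosome, the lower quartile of the gaps was 0.079 for TOP-2 and 0.132 to 0.205 for the other lists. On X alone it was 0.153 for TOP-2, within the range of the other lists (0.144 for JMJD-2 to 0.267 for SCC-1). The lowest values for TOP-2 were on IV (0.019) and III (0.022).

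The tight groups had a recurring geometry. The 94 peaks formed 41 groups, of which 31 were pairs, 9 were triplets and 1 held 5 peaks. The median tight gap was 671.5 bp, and 29 of the 53 gaps (54.7%, interval 40.4% to 68.4%) were at least 650 bp and less than 750 bp. The adjoining classes of 600 to 650 bp and of 750 to 800 bp held 4 gaps and 1 gap. This class was chosen after the gaps were seen, and its share is given as a description. Among gaps under 1 kb in the other lists the class made up 21.2% for BLMP-1 (7 of 33), 16.0% for JMJD-2 (4 of 25), 14.9% for SIN-3 (14 of 94), 10.9% for ZFP-1 (16 of 147) and 8.33% for SCC-1 (5 of 60). TOP-2 thus had more such gaps than ZFP-1, whose list is the longest.

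**Figure D3:**
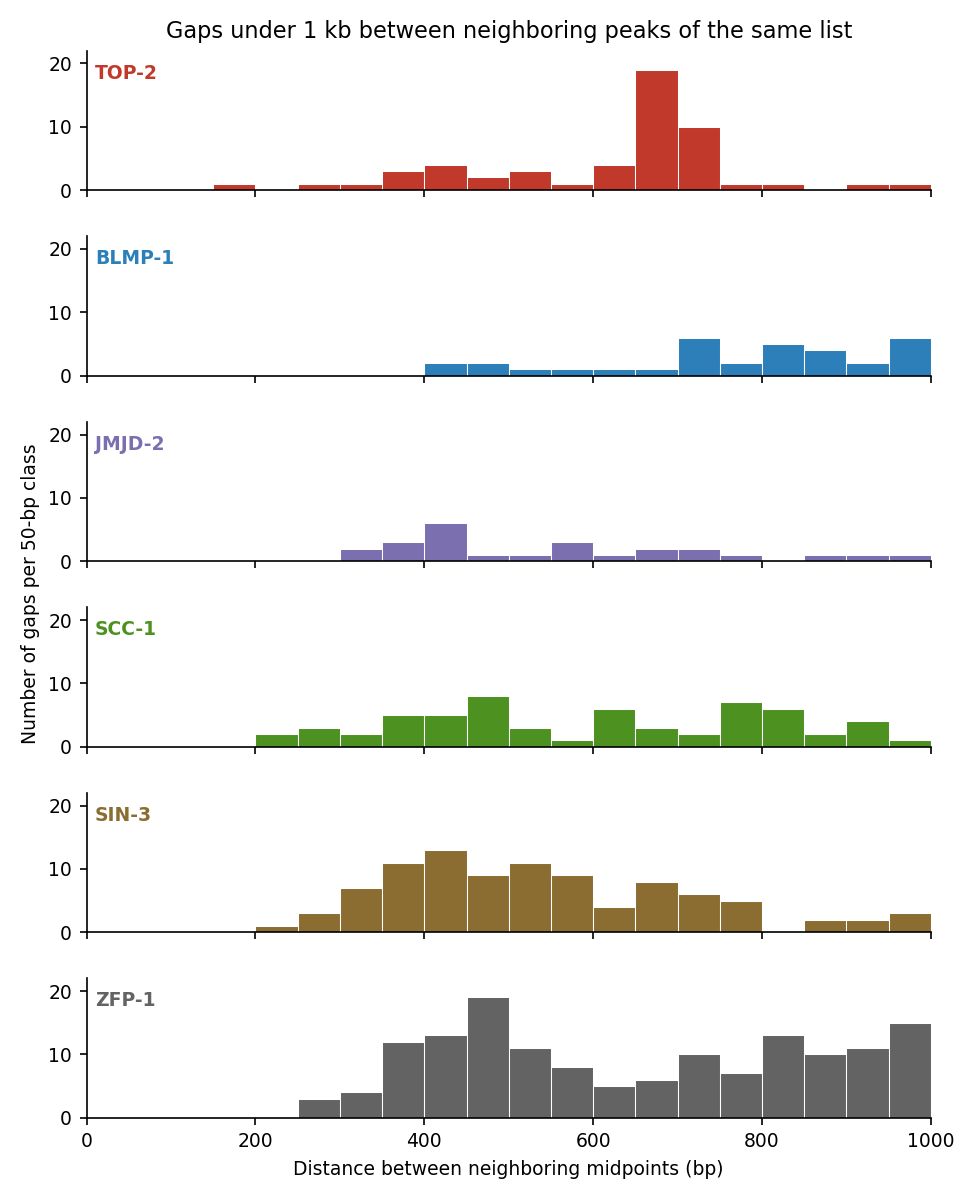
Number of gaps under 1 kb between neighboring peaks of the same list, in classes of 50 bp of the distance between midpoints, for TOP-2 (top) and the other 5 lists. TOP-2 gaps pile up in the classes from 650 to 750 bp, with 19 and 10 gaps, and the other lists hold 4 to 16 gaps in these classes together.

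Of the 9 triplets, 6 had both gaps between 639 and 721 bp and spanned 1567 to 1628 bp in all. These were at I:3701519-3703146 (gaps 676 and 721 bp), I:7720241-7721845 (680 and 672.5 bp), IV:8664316-8665882 (698.5 and 639 bp), IV:13968834-13970436 (652 and 717.5 bp), V:19566490-19568113 (702 and 686 bp) and X:5634491-5636059 (692 and 659 bp). They were found on 4 chromosomes and far from one another. In 15 of the 31 pairs the gap was also 650 to 750 bp, and these pairs spanned 877 to 955 bp. The group of 5, at III:9409940-9412730, held 2 gaps in a row of 629.5 and 659.5 bp among its 4. Counting each set of 2 gaps in a row of 600 to 750 bp, TOP-2 had 7, SIN-3 had 2 and the remaining lists had 0. Sequence and annotation of these intervals were not analysed here.

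**Figure D4:**
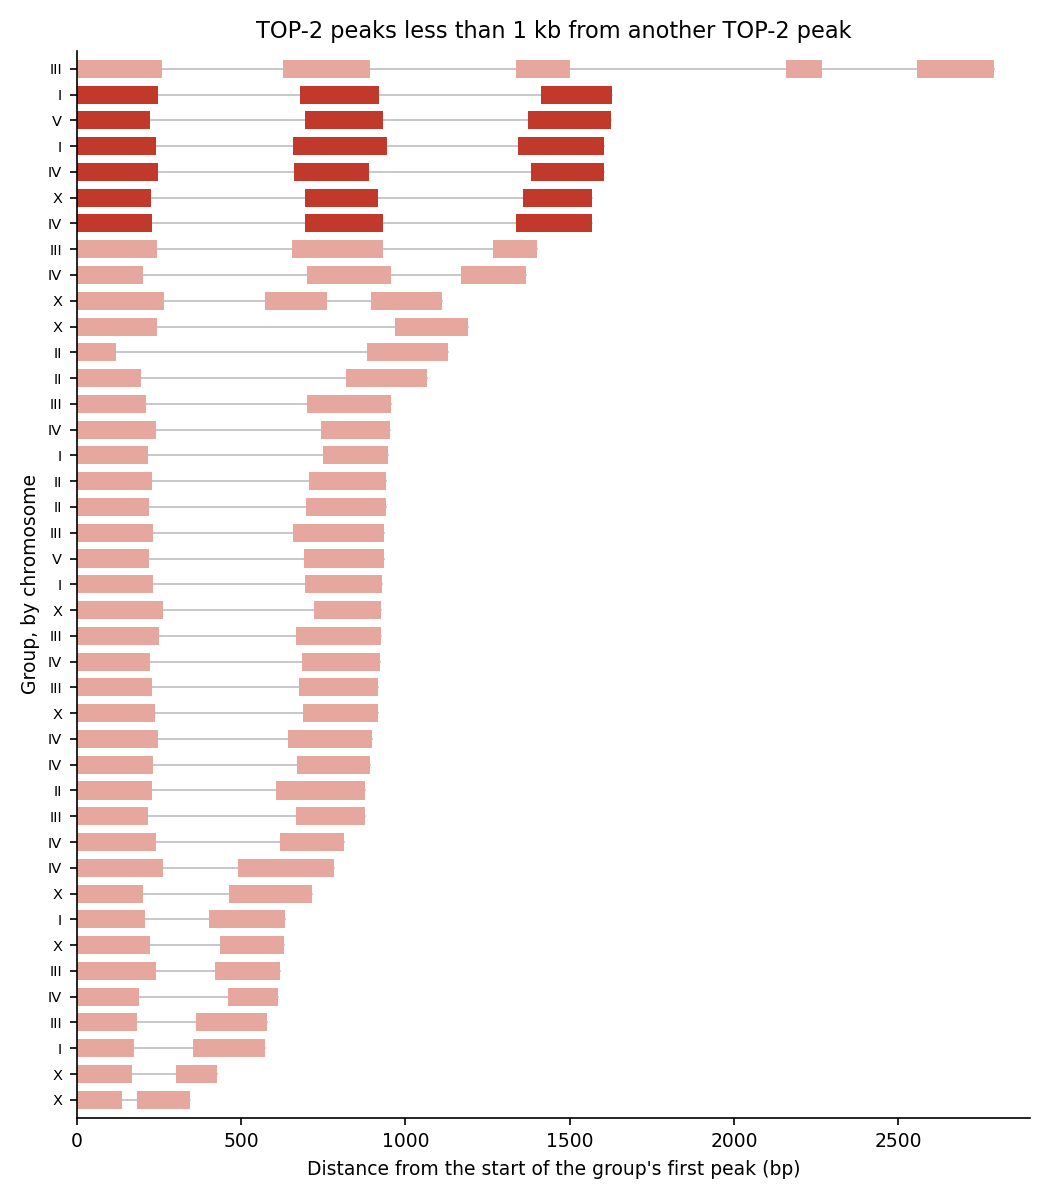
The 41 groups of TOP-2 peaks with gaps under 1 kb, each drawn from the start of its first peak, with 1 row per group named by its chromosome and bars for the peaks at their true width. The 6 evenly spaced triplets (dark) line up with each other over about the same span, and the 15 pairs with gaps of 650 to 750 bp form a column of near-equal steps.

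The other large runs were less regular. At X:2991958-2993984, 4 peaks lay within 2.03 kb, with the shortest gaps of the whole list, 196.5 and 280.5 bp. The peaks there were 124 to 169 bp wide, narrower than the list's median of 234 bp. IV:12928681-12931999 and II:6997161-7000516 held 4 peaks each over 3.32 and 3.36 kb, and 4 peaks at X:288253-297878 were spread over 9.63 kb. The third shortest gap, 336.5 bp, was on X between the peaks at 16899374 and 16899698, followed by 376 bp on I at 3552863 and 378.5 bp on III at 68236.

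Most TOP-2 peaks had no site of the other 5 proteins beside them. A midpoint of another list lay within 1 kb of 108 TOP-2 peaks (23.3%, interval 19.5% to 27.4%), whereas this held for 47.0% of the peaks of all 6 lists together. The remaining 356 peaks had none, 80 had 1 other protein, 22 had 2, 4 had 3 and 2 had 4. The median distance to the nearest midpoint of any other list was 5.22 kb, and 141 TOP-2 peaks (30.4%) were more than 10 kb from it. The most isolated peak, at V:18429760-18429873, was 104 kb from the nearest other site.

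ZFP-1, the longest list, was the closest, with a median distance of 12.6 kb and 77 TOP-2 peaks (16.6%) within 1 kb. SIN-3 followed with 24.5 kb and 26 peaks (5.60%), then BLMP-1 with 33.4 kb and 16 peaks (3.45%). SCC-1 was at a median of 41.7 kb with only 9 peaks within 1 kb (1.94%, interval 0.891% to 3.65%), and JMJD-2 at 53.5 kb with 16. The order of these medians is not independent of how many peaks each list has. To hold that constant, TOP-2 peaks were compared with the peaks of each other list for nearness to the same target. Over all chromosomes, TOP-2 had the lower share in all 20 such comparisons, and 19 passed (two-sided Fisher's exact test, with Benjamini-Hochberg adjustment over the 20). On X alone, which was not tested, a BLMP-1 site was within 1 kb of 8.55% of TOP-2 peaks. That was above JMJD-2 (8.11%), SCC-1 (7.37%) and SIN-3 (6.99%), and below ZFP-1 (13.9%). On X TOP-2 was also above BLMP-1 for nearness to SIN-3 (6.84% against 4.90%) and to JMJD-2 (5.98% against 5.39%). In the remaining comparisons on X TOP-2 was lower. Cohesin was among the targets with wide contrasts. An SCC-1 site was within 1 kb of 1.94% of TOP-2 peaks, against 37.6% of JMJD-2 peaks and 32.7% of SIN-3 peaks (adjusted p = 5.94e-57 and 2.40e-54, Fisher's exact test). The TOP-2 share was also below that of BLMP-1 (7.74%) and ZFP-1 (8.88%) (adjusted p = 5.21e-06 and 1.53e-08, Fisher's exact test). For SIN-3 as the target, TOP-2 had 5.60%, against 50.9% for SCC-1, 39.6% for JMJD-2, 15.6% for ZFP-1 and 10.8% for BLMP-1 (largest adjusted p = 0.0015, Fisher's exact test). The difference from BLMP-1 did not pass when sites within 5 kb were counted (-2.10 percentage points, adjusted p = 0.407, Fisher's exact test). For JMJD-2 as the target, TOP-2 had 3.45%, against 28.3% for SCC-1, 19.7% for SIN-3, 9.98% for ZFP-1 and 7.84% for BLMP-1 (largest adjusted p = 0.0015, Fisher's exact test).

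For ZFP-1 as the target, TOP-2, with 16.6%, was lower than BLMP-1 with 31.4% and JMJD-2 with 28.4% (adjusted p = 2.69e-09 and 2.24e-06, Fisher's exact test), and lower than SIN-3 with 21.5% (adjusted p = 0.0242, Fisher's exact test). It was not distinguished from SCC-1 with 19.2% (adjusted p = 0.254, Fisher's exact test). The difference from SIN-3 did not pass with peaks less than 1 kb apart merged (-4.14 percentage points, adjusted p = 0.07, Fisher's exact test), and the difference from SCC-1 turned to 0.24 percentage points when sites within 5 kb were counted (adjusted p = 0.953). For BLMP-1 as the target, TOP-2 with 3.45% was lower than ZFP-1 with 13.7% and JMJD-2 with 9.68% (adjusted p = 1.02e-11 and 2.99e-05, Fisher's exact test). The differences from SCC-1 (6.91%) and SIN-3 (6.30%) passed as well, at adjusted p = 0.00805 and 0.0194 in Fisher's exact test, and no longer did when sites within 5 kb were counted (adjusted p = 0.461 and 0.223).

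**Figure D5:**
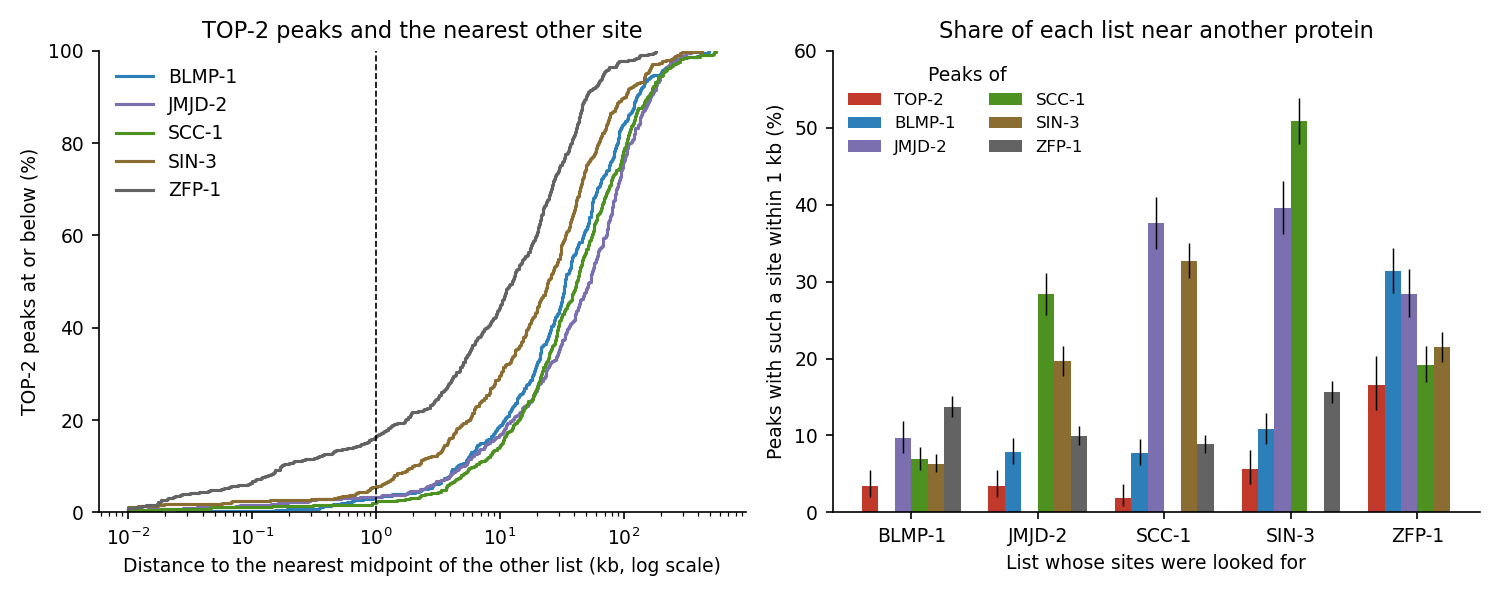
Left, cumulative percent of the 464 TOP-2 peaks by distance to the nearest midpoint of each other list, on a log axis, with distances under 10 bp drawn at 10 bp and a dashed line at 1 kb. Right, for each target on the x axis, the percent of the peaks of each list that have a target midpoint within 1 kb, with exact Clopper-Pearson 95% intervals. The TOP-2 bar is the lowest of every set, at 1.94% for SCC-1 and 16.6% for ZFP-1.

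Where TOP-2 and another protein lay within 1 kb, the peaks shared bases in between 31.3% and 67.5% of cases, lowest for BLMP-1. Of the 77 TOP-2 peaks near ZFP-1, 52 (67.5%) overlapped it by at least 1 bp, and so did 10 of 16 near JMJD-2, 6 of 9 near SCC-1 and 12 of 26 near SIN-3. Near BLMP-1, 5 of 16 did (interval 11.0% to 58.7%), and the other 11 were beside the BLMP-1 peak. BLMP-1 peaks were called with another tool and were the widest by median (336 bp, against 234 bp for TOP-2). Midpoint distances and overlaps with BLMP-1 are therefore not fully comparable with those for the other lists. With such small counts all these intervals but that of ZFP-1 are wide, and this was not tested.

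On X TOP-2 peaks were more often near another protein than on the autosomes, in 36 of 117 cases (30.8%) against 72 of 347 (20.7%, p = 0.0315, Fisher's exact test, two-sided). The combined peaks of the other 5 lists were sparser on X (59.4 per Mb) than on the autosomes (73.2 per Mb). By list, SCC-1 (5.37 against 12.4 per Mb) and SIN-3 (8.09 against 19.1) were sparser on X. ZFP-1 (26.1 against 24.3 per Mb), BLMP-1 (11.5 against 9.43) and JMJD-2 (8.37 against 8.10) were denser on X. With at least 1 shared base as the criterion, the X minus autosome difference in nearness was 4.12 percentage points and did not pass (p = 0.294, Fisher's exact test). It also did not pass with all peaks left out that had a neighbor of the same list less than 1 kb away, an alternative chosen after the gaps were seen, where it was 10.0 percentage points (p = 0.0514, Fisher's exact test). ZFP-1 was within 1 kb of 27 TOP-2 peaks on X (23.1%) and of 50 on the autosomes (14.4%), and BLMP-1 of 10 (8.55%) and 6 (1.73%). SIN-3 was near 8 on X (6.84%) and 18 on the autosomes (5.19%). More frequent nearness to ZFP-1 on X than on the autosomes was not particular to TOP-2. It was also seen for peaks of SIN-3 (37.8% against 20.0%), JMJD-2 (38.5% against 26.2%) and SCC-1 (28.4% against 18.3%). For BLMP-1 peaks the share near ZFP-1 was lower on X (27.0% against 32.5%).

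At least 2 other proteins lay within 1 kb of 28 of the 464 TOP-2 peaks (6.03%). Of these 28, 14 were on X, which held 25.2% of all TOP-2 peaks. The share of peaks with at least 2 partners was not counted for the other lists, and no test was made. At X:16682076-16682303, JMJD-2, SCC-1, SIN-3 and ZFP-1 midpoints were 162, 145.5, 141 and 143.5 bp away, all in overlapping peaks. At IV:2397465-2397668, JMJD-2, SCC-1 and SIN-3 were 9, 7 and 4 bp away, and ZFP-1 was 969.5 bp away. The peak at X:180570-180753, the first TOP-2 peak on X, had JMJD-2, SCC-1 and ZFP-1 within 27.5, 12 and 9 bp. At X:15276041-15276263, ZFP-1 was 13 bp away, BLMP-1 669.5 bp and JMJD-2 745 bp. X:1345231-1345483 and X:16025011-16025222 had 3 proteins each at 293.5 to 366.5 bp, none of them overlapping. Among those with 2 partners were III:11826864-11827043, with JMJD-2 at 2.5 bp and SCC-1 at 45.5 bp, III:2171925-2172154, with JMJD-2 and ZFP-1, IV:4028291-4028520, with BLMP-1 and ZFP-1 at 25 and 26 bp, and X:760599-760825, with SIN-3 and ZFP-1.

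The partners of peaks in tight groups were counted apart from those of the other peaks. Another protein lay within 1 kb of 13 of the 94 peaks in tight groups (13.8%, interval 7.57% to 22.5%), against 95 of the 370 others (25.7%, 21.3% to 30.4%). SIN-3 was within 1 kb of each of these 13, or 13.8% of peaks in tight groups, against 13 of the 370 others (3.51%, interval 1.88% to 5.93%). ZFP-1 was near 4 of 94 in tight groups (4.26%) and 73 of 370 others (19.7%). BLMP-1, JMJD-2 and SCC-1 were each near 0 of 94, which allows a share of up to 3.19% if 3 counts are taken as the limit (exact Clopper-Pearson upper bound 3.85%), and near 16, 16 and 9 of the 370 others. The 13 tight peaks with a partner came from 7 of the 41 groups, and the other 34 groups had none of the 5 proteins within 1 kb of any peak. SIN-3 was within 1 kb of 2 of the 3 peaks in the even triplets at I:3701519-3703146 and V:19566490-19568113, and the other 4 even triplets had no other protein. These shares were compared after the groups had been seen and were not tested, and peaks of 1 group share their surroundings.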

How the data were processed

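The lists had been deposited by the authors as positions, which is a unit with no score, height or count. According to the methods, peaks were called in each replicate with YAPC (MACS2 for BLMP-1), and the replicates were combined by IDR, with 0.01 as the P-value threshold. BWA, MACS2 and ce10 are named in the submitters' processing notes. Not given in the sources used here are tool versions, the treatment of reads that align at several places, and whether the lists had passed the filter for highly occupied regions. Depth per sample is unknown.

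Peaks were reduced to midpoints. Distances and gaps are between midpoints, overlap is at least 1 shared bp, and coordinates count from 1. No chromosome sequence or annotation of ce10 was used here, so lengths end at the last peak of any list and no gene or sequence is given. Shares were compared with Fisher's exact test and Benjamini-Hochberg adjustment at 0.05. Spacing, density and width were described with no test. Sites named are the 5 runs with the most peaks, 5 shortest and 5 longest gaps, the outermost peak at each end, the densest window of each chromosome, up to 10 sites with 2 or more partners and the 3 widest and narrowest peaks. The even triplets and isolated peak were added after their values were seen. Members, lists and comparisons were chosen with earlier results of these data known. The procedures were tested on simulated data. Python 3.11.15, numpy 2.4.6, scipy 1.17.1 and matplotlib 3.10.9 were used.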

Additional observations from a re-analysis of the deposited data

How the results depend on the processing

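No paired analysis was possible because each protein has 1 combined list and no values per replicate. Leaving out peaks with a neighbor of the same list under 1 kb away was chosen after the gaps were seen in the data. Of 189 tests under alternatives, 159 kept direction and side of the threshold, 15 no longer passed, 6 newly passed and 9 reversed, none of the reversals in a difference that had passed. Differences below are TOP-2 minus the named list, in percentage points. The cause of these changes was not tested.

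With peaks less than 1 kb apart merged, the share on X newly passed against BLMP-1 (5.03), and nearness to BLMP-1 against SIN-3 (-2.65) and to ZFP-1 against SIN-3 (-4.14) no longer passed. With tight peaks left out, the share on X newly passed against BLMP-1 (5.56), and nearness to BLMP-1 against SCC-1 (-3.0) and SIN-3 (-2.55), to ZFP-1 against SIN-3 (-3.70), and the X minus autosome difference in nearness (10.0) no longer did. With peaks shared with another list left out, the share on X against JMJD-2 (2.88) and the share within 1 Mb of an end against ZFP-1 (3.79) no longer passed. With 4 segments instead of 3, the outer share on autosomes newly passed against JMJD-2 (10.5), SCC-1 (8.15) and SIN-3 (7.95). Within 500 kb of an end, BLMP-1 (2.55) and ZFP-1 (1.99) no longer passed, and SCC-1 (-1.34) and SIN-3 (-0.095) reversed. With sites within 5 kb, nearness to BLMP-1 against SCC-1 (-1.46) and SIN-3 (-2.44), to SIN-3 against BLMP-1 (-2.10) and to ZFP-1 against SIN-3 (-2.39) no longer passed, and to ZFP-1 against SCC-1 reversed (0.24). With 1 shared bp, nearness to ZFP-1 against SCC-1 newly passed (-3.86), and the X minus autosome difference (4.12) no longer did. In the outer segments of X, where nothing passed, reversals were against SCC-1 with merging (1.47), without shared peaks (1.20) and without tight peaks (3.67), against SIN-3 without shared peaks (-3.88) and with 4 segments (-5.21), and against JMJD-2 with 4 segments (-3.01). The share of TOP-2 peaks in runs was 31.25% with gaps of up to 5 kb and 42.9% with gaps of up to 20 kb, against 36.0% at 10 kb.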

Other observations

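TOP-2 peaks were the narrowest of the 6 lists by median (234 bp), but close to SCC-1 and SIN-3 (235 bp each), and 368 of 464 (79.3%) were 200 to 260 bp wide. The median was 234 bp on X and 233 bp on the autosomes. The widest were at X:15487056-15487401 (346 bp), X:2885328-2885660 (333 bp) and III:7474893-7475200 (308 bp). The narrowest were at III:2080313-2080388 (76 bp), X:5285248-5285324 (77 bp) and II:1079239-1079317 (79 bp). All TOP-2 peaks together covered 107 kb.

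Counts of TOP-2 peaks in the 80 full 1-Mb windows of the autosomes rose weakly with those of SIN-3 (Spearman's rho 0.33, Pearson's r 0.21), and rho was 0.10 to 0.22 for the other 4 lists. Over the 17 windows of X, rho was 0.52 with BLMP-1 (r = 0.53) and -0.11 to 0.14 with the others. Windows of a chromosome adjoin each other and all lists share the same genome, so these values are descriptions over windows.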
